A study of Homo sapiens with 15 samples.

Results

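IMR90 cells, human fibroblasts grown from fetal lung, were driven into senescence with a retrovirus carrying RAS and then treated with siRNA against METTL14, while METTL14 was supplied again from a lentivirus. The comparison described here asks what still differed from RAS cells with a non-targeting siRNA although METTL14 transcript was in excess. It takes 9 of the 15 libraries of the series, chosen by their labels. The wild-type add-back group (3 libraries) had RAS, siRNA against METTL14 and lentiviral wild-type METTL14. The R298P add-back group (3 libraries) had RAS, the same siRNA and lentiviral METTL14 with the R298P substitution. The siControl RAS group (3 libraries) had RAS and the non-targeting siRNA. Both add-backs formed 1 side of the comparison, with equal weight to each form. All 9 libraries carried RAS. Beside them stand 3 vector knockdown libraries (RAS, siRNA against METTL14 and a lentiviral vector without METTL14) and 3 control libraries (an empty retrovirus and the non-targeting siRNA). The first siRNA was given on day 4 and RNA was taken 48 hours after the second siRNA and the lentivirus. Under genotype the labels speak of knockout and knock-in, and their protocols of siRNA and lentivirus, which are followed here. The labels do not give the RAS isoform, a resistance of the lentiviral METTL14 to the siRNA, or a lentiviral vector in siControl RAS cells. The siRNA, the supplied METTL14 and any such difference in lentivirus cannot be told apart in this contrast.

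METTL14 is the partner of the methyltransferase METTL3 in the enzyme complex that places N6-methyladenosine (m6A) in RNA, and WTAP is the subunit that brings the complex to nuclear speckles. R298P is known to lower the methylating activity of the complex. Cells with oncogenic RAS stop dividing and release a mixture of proteins, from interleukins and growth factors to matrix-cutting enzymes. This senescence-associated secretory phenotype (SASP) depends on the transcription factors NF-kB and C/EBP-beta. Senescent fibroblasts can also turn on interferon-stimulated genes, an antiviral programme that type I interferon starts.

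Expression was read as tags from the 3′ ends of transcripts. Total counts were 5023359 to 6736809 in wild-type add-back, 4953042 to 6271500 in R298P add-back and 5611724 to 7763084 in siControl RAS libraries. One count was therefore worth 0.129 to 0.202 CPM (counts scaled to library size) in these 9 libraries. Levels below are normalised CPM per library or mean ± SD (n = 3 libraries a group), and differences are fitted log2 fold changes ± SE. A change is called where edgeR's quasi-likelihood test (two-sided, 13516 genes tested) gave an adjusted p under 0.05 by the Benjamini-Hochberg method. Nothing in the labels says that the 3 libraries of a group were separate cultures, and p-values then reflect only a variation between libraries that may be technical. The 10 most abundant genes took 7.07% to 7.58% of the counts of add-back libraries and 8.82% to 8.85% in siControl RAS libraries. All 12 fibroblast markers were expressed, while the epithelial CDH1, KRT5, KRT14 and ESRP1, the endothelial CDH5 and ERG, and the leukocyte LYZ, CD3E, ITGAM and TYROBP had 0 counts in all 9 libraries. Other members of these lists were expressed, led by KRT18 with up to 47.4 CPM, TEK with up to 38.8 CPM and CD68 with up to 23.2 CPM. On the first principal component of the 9 libraries (26.4% of the variance) the add-backs stood at -26.99 to -16.17 and the siControl RAS libraries at 38.26 to 42.48.

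METTL14 (ENSG00000145388), the targeted gene, stood far above its siControl level in every add-back library. Its level was 508, 564 and 564 CPM in wild-type add-back, 892, 907 and 1038 CPM in R298P add-back, and 26.2, 19.3 and 20.5 CPM in siControl RAS libraries. The groups were widely apart, and R298P libraries were all above wild-type ones. By the fitted contrast, which averages the log levels of both forms, the add-backs were 32.3-fold above siControl RAS cells (log2 5.01 ± 0.15, edgeR adjusted p = 1.31e-13). Vector knockdown libraries had 9.35, 4.94 and 3.94 CPM, 3.77-fold below siControl RAS cells. Tags of endogenous and lentiviral METTL14 were not separated, and protein was not measured in these data.

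The partners of METTL14 did not follow it. METTL3 averaged 12.3 ± 3.30 CPM in wild-type add-back, 12.4 ± 0.74 CPM in R298P add-back and 12.4 ± 6.19 CPM in siControl RAS cells, a difference of 0.01 ± 0.25 (edgeR adjusted p = 0.983) whose sign turned when single libraries were left out. The widest value among these 9 libraries was 19.5 CPM in siControl RAS replicate 2, so METTL3 was measured with little precision. Of the 20 writers, erasers and readers of m6A tested, METTL14 itself was the 1 that was called against siControl RAS cells; 2 were called with upper-quartile factors and without siControl RAS replicate 2 or 3.

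**Figure D1:**
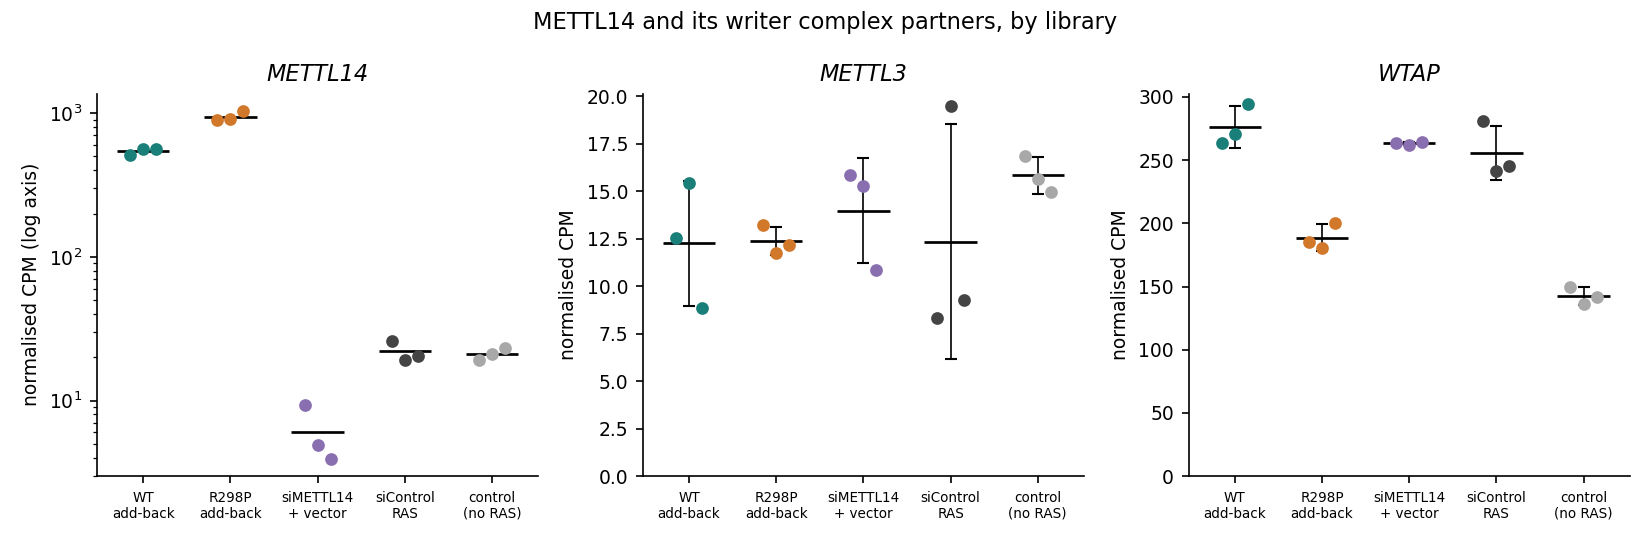
Normalised CPM of METTL14 (log axis), METTL3 and WTAP in each library, with the group mean (line) and, on the linear axes, the SD (bars). METTL14 lies between 508 and 1038 CPM in the 6 add-back libraries and between 19.3 and 26.2 CPM in siControl RAS libraries, and WTAP is lower in R298P add-back than in the other RAS groups.

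Against siControl RAS cells the add-backs were called higher for 1087 genes (8.04% of those tested) and lower for 1206 genes (8.92%), which is 2293 genes or 17.0% in all. A change of at least 2-fold was fitted for 152 of the higher and 277 of the lower ones. In 1911 of the 2293 genes the 6 add-back libraries and the 3 siControl RAS libraries did not overlap at all, a state found in 18.9% of all tested genes. Each form by itself gave a count of similar size: 1755 genes (13.0%) for wild type and 1813 (13.4%) for R298P. These 2 counts share the siControl RAS libraries. In these bulk libraries fewer cells that express a gene and less RNA per cell cannot be told apart.

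The gene groups below are lists chosen with earlier results of these data known, and their counts are descriptions to be read against those background shares. Interferon-stimulated genes, SASP cytokines and NF-kB genes were among those lower in the add-backs, and mitotic, contractile and cytosolic ribosomal protein genes among those higher. The median difference over all tested genes was -0.0033 in log2 units.

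**Figure D2:**
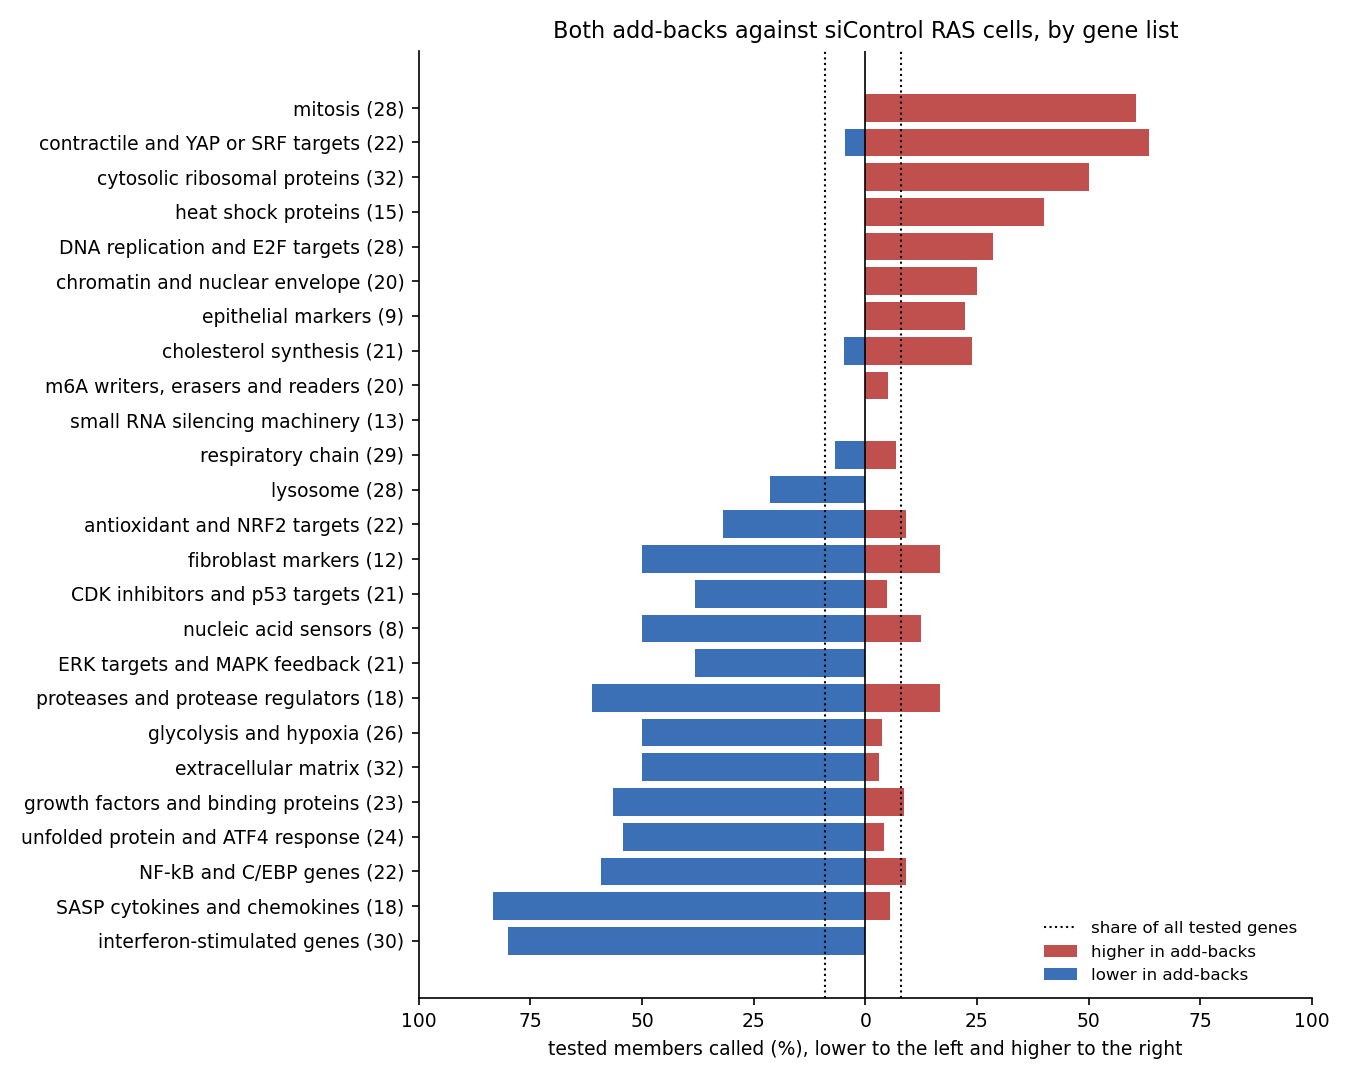
Share of the tested members of each gene list with at least 5 of them (number in brackets) called lower (left) or higher (right) in the add-backs than in siControl RAS cells, in percent. Dotted lines mark the shares of all tested genes, 8.92% lower and 8.04% higher; the interferon and SASP lists reach farthest to the left.

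Interferon-stimulated genes had the lowest median difference of all the lists. Of 30 tested members 24 fell and 0 rose, with a median of -1.71. IFI27, an interferon-induced mitochondrial protein, fell most: it had 6.06, 8.53 and 6.95 CPM in wild-type add-back, 6.20, 9.37 and 8.72 CPM in R298P add-back and 189, 222 and 205 CPM in siControl RAS libraries. All 6 add-back libraries were below every siControl RAS library, a fitted difference of 26.8-fold (log2 -4.74 ± 0.14, edgeR adjusted p = 1.60e-23). IFI6, another interferon-induced mitochondrial protein, had 343, 378 and 375 CPM in wild-type add-back, 361, 369 and 440 CPM in R298P add-back and 2852, 2807 and 2665 CPM in siControl RAS libraries (log2 -2.88 ± 0.05, edgeR adjusted p = 1.15e-29). BST2, which tethers budding virus to the cell surface, had 0.61 to 1.88 CPM in the 6 add-back libraries and 26.4 to 30.5 CPM in siControl RAS libraries.

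A pair of effectors that block virus replication followed the same order of groups. MX1, a GTPase, had 1.41 to 9.20 CPM (median 5.95) over the 6 add-back libraries and 42.1, 46.5 and 44.2 CPM in siControl RAS libraries. OAS2, which makes the second messenger that activates RNase L, had 2.02 to 5.28 CPM (median 3.27) in add-backs and 24.5, 23.6 and 24.2 CPM in siControl RAS libraries. Neither gene overlapped between the sides. IFITM3, which hinders viral entry, fell by 1.14. The 6 members that were not called were IFITM1, IFI35, IRF9, SAMD9L, STAT2 and IRF1, from -2.07 for IFITM1 to 0.19 for IRF1. Among 8 nucleic acid sensors 4 fell, led by the double-stranded RNA sensor IFIH1 (-1.44 ± 0.30) and the kinase EIF2AK2 (-0.50 ± 0.07), and the ubiquitin ligase TRIM25 rose by 0.46. The count of 4 was 2 without wild-type add-back replicate 3, R298P add-back replicate 2 or siControl RAS replicate 1 or 2.

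The promoters of IFI27, IFI6 and BST2 are shown because these genes fell together and are textbook targets of the interferon-stimulated response element (ISRE), the DNA word through which type I interferon acts on its target genes. They are the 250 bases before the start of the gene from RefSeq, build GRCh38.p14, written 5′ to 3′ on the strand of the gene, with matches to the word GAAA NN GAAA (N is any base, no gap) on either strand in capitals. IFI27 lies at chr14:94110486-94110735 on the + strand with 2 matches, IFI6 at chr1:27672193-27672442 on the - strand with 3 matches, and BST2 at chr19:17405631-17405880 on the - strand with 2 matches that overlap each other.
IFI27: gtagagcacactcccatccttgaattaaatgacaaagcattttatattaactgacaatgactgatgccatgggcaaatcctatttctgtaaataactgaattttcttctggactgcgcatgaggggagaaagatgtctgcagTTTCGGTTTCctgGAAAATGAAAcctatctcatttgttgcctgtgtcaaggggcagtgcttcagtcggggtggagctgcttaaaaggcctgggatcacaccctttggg
IFI6: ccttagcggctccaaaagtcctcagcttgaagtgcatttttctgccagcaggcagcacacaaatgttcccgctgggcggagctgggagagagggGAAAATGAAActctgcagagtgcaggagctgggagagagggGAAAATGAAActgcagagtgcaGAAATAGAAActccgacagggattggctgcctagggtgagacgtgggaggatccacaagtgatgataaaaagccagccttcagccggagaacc
BST2: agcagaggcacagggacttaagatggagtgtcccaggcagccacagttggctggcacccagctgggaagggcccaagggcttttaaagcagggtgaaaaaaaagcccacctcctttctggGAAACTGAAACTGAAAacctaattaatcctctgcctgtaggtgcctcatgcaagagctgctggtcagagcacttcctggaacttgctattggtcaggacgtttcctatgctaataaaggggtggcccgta

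In a window of 300 bases (250 before and 50 after the start) this word was found in 15 of the 24 interferon-stimulated genes with a RefSeq window (62.5%), in 3.65% of all 27305 RefSeq windows and in 2.77% of the 10049 windows of tested genes. The list was assembled from genes known for this response, so the share describes the list and is no finding about the libraries. A match is a run of letters and not a site shown to be bound.

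The interferon group was also lower than in vector knockdown cells. Against the vector group 153 genes (1.13%) were called, 79 higher (0.584%) and 74 lower (0.547%). Of the 30 interferon-stimulated genes 18 were among the lower ones and 0 among the higher, with a median of -1.24. MX1 had 31.5, 35.8 and 34.8 CPM in vector knockdown libraries, so the add-backs were 5.90-fold lower (log2 -2.56, edgeR adjusted p = 5.07e-08). IFIT1, which binds viral RNA, was at 3.62 ± 2.26 CPM in wild-type add-back, 5.55 ± 2.77 CPM in R298P add-back, 20.5 ± 5.18 CPM in vector knockdown and 14.5 ± 3.63 CPM in siControl RAS cells. Vector knockdown against siControl RAS cells, a comparison that shares the siControl libraries, called 5 members lower and 2 higher, beside 8.06% and 7.47% of all genes. Among the 5 lower ones were IFI27 (-2.81), BST2 (-3.30), IFI6 (-1.45) and IFI44L (-1.45), so these genes were already lower with vector. BST2 was not called between the add-backs and vector knockdown. MX1 was not called between vector knockdown and siControl RAS cells (-0.38), nor were OAS2 (-0.59), IFIT1 (0.50) and HERC6 (0.15). For these 4 genes the level in the add-backs was below both other RAS groups. What sets the add-backs apart from the vector cells in the interferon group was not tested.

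**Figure D3:**
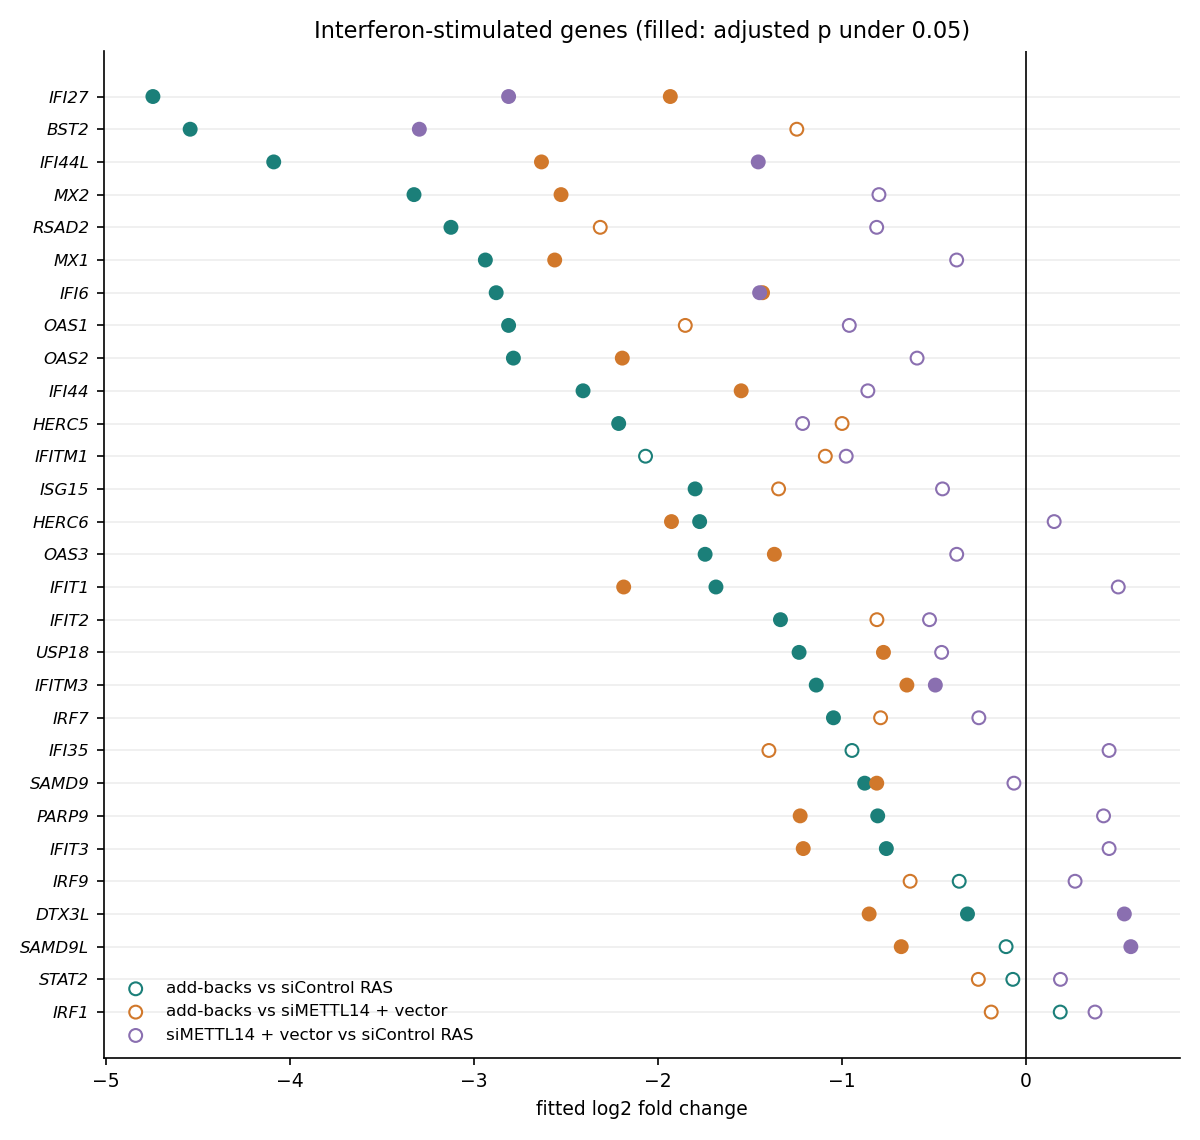
Fitted log2 fold change of 29 of the 30 interferon-stimulated genes for the add-backs against siControl RAS cells (green), the add-backs against vector knockdown (orange) and vector knockdown against siControl RAS cells (purple). Filled points are called by edgeR; green points are filled in 23 of the 29 genes, orange in 17 and purple in 7, and the comparisons share libraries with each other.

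SASP cytokines and chemokines stayed below their siControl RAS level. Of 18 tested members 15 fell and 1 rose, with a median of -1.47. IL11, a cytokine of the IL-6 family, had 114, 96.8 and 107 CPM in wild-type add-back, 88.4, 76.7 and 101 CPM in R298P add-back and 860, 765 and 807 CPM in siControl RAS libraries. That is an 8.38-fold difference with no overlap (log2 -3.07 ± 0.07, edgeR adjusted p = 3.08e-27), and control cells without RAS were at 116 ± 6.92 CPM. IL6 had 4.46 to 11.9 CPM (median 9.33) in add-backs and 54.9, 66.9 and 47.9 CPM in siControl RAS libraries. IL1B, an interleukin-1 cytokine upstream of the SASP, had 217 to 272 CPM in add-backs and 644, 655 and 785 CPM in siControl RAS libraries, and its relative IL1A fell by 1.42 ± 0.12.

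The neutrophil chemokines CXCL1 and CXCL8 fell by less than IL11 and IL6. CXCL1 had 893, 850 and 828 CPM in wild-type add-back, 892, 837 and 649 CPM in R298P add-back and 1611, 1704 and 1763 CPM in siControl RAS libraries (log2 -1.04 ± 0.13, edgeR adjusted p = 0.000195). CXCL8 stood at 394 ± 25.3 CPM in wild-type add-back, 403 ± 27.4 CPM in R298P add-back and 867 ± 35.7 CPM in siControl RAS cells. Control cells had 1.91 ± 1.27 CPM of CXCL1 and 2.79 ± 1.91 CPM of CXCL8, so both chemokines remained far above the level without RAS. IL32 was the member that rose, by 0.92, and CCL2, the monocyte chemokine, had 56.2 to 146 CPM in add-backs and 92.3 to 117 CPM in siControl RAS libraries with an edgeR adjusted p of 0.867. The promoter of CXCL1 is shown as a classic NF-kB target, with its single match to GGG NN TTTCC (no gap) in capitals (RefSeq, GRCh38.p14, chr4:73869143-73869392, + strand, 250 bases before the start).
CXCL1: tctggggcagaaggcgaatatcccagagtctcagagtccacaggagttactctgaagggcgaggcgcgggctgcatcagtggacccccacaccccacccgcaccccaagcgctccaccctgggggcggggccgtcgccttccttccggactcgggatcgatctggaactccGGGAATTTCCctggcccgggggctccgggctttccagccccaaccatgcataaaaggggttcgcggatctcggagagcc

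This NF-kB word was in 8 of 15 SASP genes with a window (53.3%) and in 1.92% of all RefSeq windows, and the AP-1 word TGANTCA in 3 of 15 (20%) and 7.76%; both were counted on either strand of the same 300 bases, and matches of different words may overlap. As with the interferon list, the genes were chosen for their known biology.

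Part of this group was higher than in vector knockdown cells. Of the 18 SASP genes 6 were called higher in the add-backs than in the vector group and 0 lower: IL11, CSF3, CXCL6, IL1B, CXCL8 and CXCL1. CXCL6, another neutrophil chemokine, was at 50.6 ± 2.66 CPM in wild-type add-back, 47.2 ± 3.80 CPM in R298P add-back, 20.4 ± 4.77 CPM in vector knockdown and 145 ± 17.1 CPM in siControl RAS cells. All 6 add-back libraries stood above the vector libraries and below the siControl RAS libraries. IL6 did not pass against vector (-0.19, edgeR adjusted p = 0.919). The count of 6 was 3 when R298P add-back replicate 1 or vector knockdown replicate 2 was left out.

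Growth factors and proteases of the secretome were lower too. In the list of growth factors with their binding proteins, 13 of 23 fell and 2 rose. AREG, a ligand of the EGF receptor, had 68.1, 60.0 and 63.3 CPM in wild-type add-back, 92.4, 68.8 and 81.1 CPM in R298P add-back and 641, 638 and 676 CPM in siControl RAS libraries (log2 -3.18 ± 0.11). Its relative EREG fell by 1.93 ± 0.10, the angiogenic factor VEGFA by 1.11 and the stress cytokine GDF15 by 0.97. FGF2, a fibroblast growth factor, had 106 to 138 CPM in add-backs and 277 to 283 CPM in siControl RAS libraries. Against vector knockdown 4 genes of this list were called higher, AREG by 0.81 ± 0.14, and 0 lower. Among 18 proteases and their regulators 11 fell and 3 rose: the stromelysin MMP3 averaged 215 ± 59.1 CPM in wild-type add-back, 235 ± 35.4 CPM in R298P add-back and 623 ± 73.3 CPM in siControl RAS cells, and the collagenase MMP1 fell by 0.77 ± 0.05.

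Genes of NF-kB and of the RAS-ERK pathway pointed the same way. In the NF-kB and C/EBP list 13 of 22 fell and 2 rose. PTGS2, the inducible enzyme of prostaglandin synthesis, had 134, 115 and 135 CPM in wild-type add-back, 145, 133 and 144 CPM in R298P add-back and 925, 999 and 948 CPM in siControl RAS libraries (log2 -2.83 ± 0.07, edgeR adjusted p = 4.84e-27). CEBPB, the transcription factor of the SASP, fell by 1.13, while the subunits RELA (0.09) and NFKB1 (0.07) did not pass. The exceptions were VCAM1 and ICAM1, adhesion molecules for leukocytes. VCAM1 had 36.4, 31.6 and 38.5 CPM in wild-type add-back, 33.6, 35.8 and 28.0 CPM in R298P add-back and 3.68, 2.81 and 2.14 CPM in siControl RAS libraries, an 11.5-fold rise (log2 3.53 ± 0.25, edgeR adjusted p = 3.64e-13), the largest after METTL14 among the genes named by the rule for higher genes.

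VCAM1 had 14.8, 23.1 and 19.5 CPM in vector knockdown libraries and was called higher in the add-backs than there (0.82 ± 0.20), the 1 gene of its list; the count was 0 in 6 leave-outs of single libraries. ICAM1 rose by 0.32 against siControl RAS cells, but the 2 higher NF-kB genes were 1 in 5 leave-outs of single libraries, while VCAM1 was called in every alternative. Of 21 targets and feedback genes of ERK, 8 fell and 0 rose. EGR1, an immediate early transcription factor, was at 182 ± 8.26 CPM in wild-type add-back, 162 ± 4.43 CPM in R298P add-back and 480 ± 42.5 CPM in siControl RAS cells. HRAS had 38.9 to 60.0 CPM in add-backs and 37.1 to 44.9 CPM in siControl RAS libraries and did not pass (0.28 ± 0.13, edgeR adjusted p = 0.147), and whether these tags include the RAS transgene, whose isoform is not named, is not known. NR4A2, an orphan nuclear receptor that stimuli induce at once, had 13.5 to 20.4 CPM (median 16.8) in add-backs and 191, 149 and 156 CPM in siControl RAS libraries, a 9.94-fold fall.

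**Figure D4:**
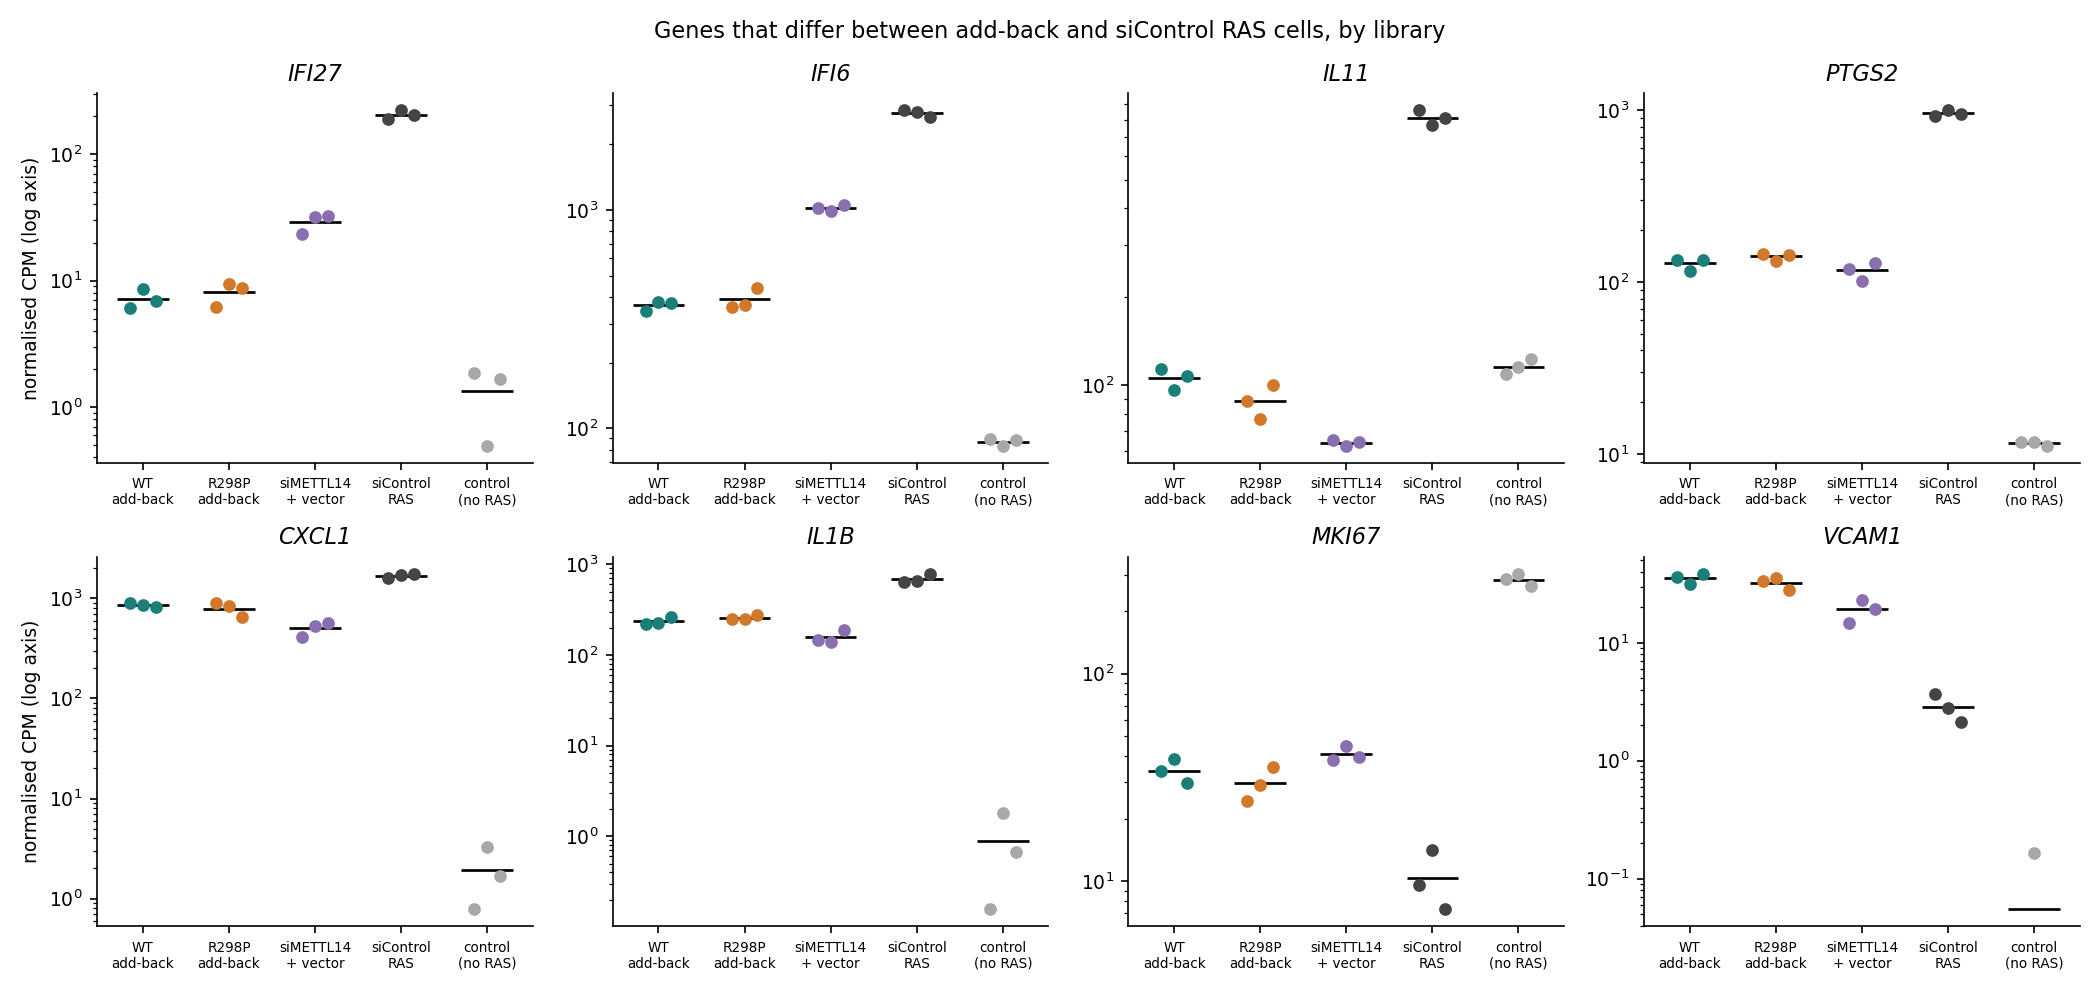
Normalised CPM (log axes) of 8 genes in each library of the 5 groups, with group means as lines. Libraries at 0 CPM cannot be drawn on a log axis, which leaves out 2 control libraries of VCAM1; the add-back and siControl RAS libraries do not overlap in any of the 8 genes.

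Mitotic genes were higher in the add-backs, at low levels. Of 28 mitotic genes 17 rose and 0 fell, with a median of 0.77. In 7 of the 28 all add-back libraries stood above all siControl RAS libraries, and in the rest the libraries overlapped. The libraries did not overlap in 18.9% of all tested genes. MKI67, the proliferation antigen, had 33.7, 38.9 and 29.7 CPM in wild-type add-back, 24.3, 29.1 and 35.3 CPM in R298P add-back and 9.54, 14.1 and 7.31 CPM in siControl RAS libraries (log2 1.63 ± 0.16, edgeR adjusted p = 1.65e-09). Control cells without RAS had 284 ± 19.6 CPM, and all 28 mitotic genes were called lower in the add-backs than there, beside 20.6% of all tested genes. TOP2A, which untangles replicated DNA, averaged 95.9 ± 6.56 CPM in wild-type add-back, 90.6 ± 10.2 CPM in R298P add-back and 56.8 ± 6.06 CPM in siControl RAS cells. CCNA2, a cyclin of S phase, did not pass (0.97 ± 0.36, edgeR adjusted p = 0.0582) but was called in 6 of 20 alternatives. CENPA, the histone of centromeres, had 45 counts over the 6 add-back libraries and 1 count over the siControl RAS libraries, a ratio of 24.2 with an exact 95% interval of 4.12 to 976 that covers counting error only.

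Of 28 replication and E2F genes 8 rose and 0 fell. MYBL2, an E2F target and cell cycle transcription factor, had 12.5, 8.68 and 22.4 CPM in wild-type add-back, 10.5, 10.1 and 11.6 CPM in R298P add-back and 2.32, 3.37 and 1.78 CPM in siControl RAS libraries (log2 2.32 ± 0.31). E2F1 rose by 1.47. Against vector knockdown cells 0 replication genes were called and 1 mitotic gene, the cyclin CCNB1, which was lower by 0.66, a count of 0 without vector knockdown replicate 3. The mitotic count was 11 without siControl RAS replicate 1 or 3, 9 with the 9 compared libraries alone and 10 with limma-voom, and the replication count was 4 and 3 there.

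Of 21 CDK inhibitors and p53 targets 8 fell and 1 rose; 4 fell without siControl RAS replicate 1 and 5 without replicate 2, and 3 rose with upper-quartile factors. CDKN1A, the p21 inhibitor, averaged 1460 ± 63.7 CPM in wild-type add-back, 1396 ± 51.0 CPM in R298P add-back and 1771 ± 87.2 CPM in siControl RAS cells (log2 -0.31 ± 0.05), and 687 ± 15.8 CPM in control. CDKN2A, a gene whose products include p16 and whose transcripts were counted together, did not pass. CDKN2A had 120 to 155 CPM in add-backs and 156, 174 and 170 CPM in siControl RAS libraries (-0.24 ± 0.09, edgeR adjusted p = 0.0817). It was called lower in 4 of 20 alternatives. CDKN2B, which encodes p15, fell by 0.46, a call that was lost when any 1 of 7 libraries was left out. LMNB1, a lamin that senescent cells lose, did not pass either (0.52 ± 0.20, edgeR adjusted p = 0.0775), with 6.04 to 11.4 CPM in add-backs and 4.99 to 6.67 CPM in siControl RAS libraries that overlap. LMNB1 was called in 1 of 20 alternatives. The chromatin and nuclear envelope list had 5 of 20 higher, among them HMGA2, and 0 lower; 3 were higher without siControl RAS replicate 1 and 1 was lower without wild-type add-back replicate 1.

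Extracellular matrix and contractile genes moved in opposite directions. Of 32 matrix genes 16 fell and 1 rose, with a median of -0.23. Fibronectin, FN1, had 3073, 2917 and 2919 CPM in wild-type add-back, 2941, 3055 and 3094 CPM in R298P add-back and 5669, 5386 and 5060 CPM in siControl RAS libraries (log2 -0.84 ± 0.05, edgeR adjusted p = 7.77e-16). The proteoglycan LUM and the matricellular protein POSTN fell by 1.13 and 0.99, and the microfibril protein FBN2 was the member that rose, by 1.33 ± 0.11. Against vector knockdown 10 matrix genes were higher and 0 lower, FN1 by 0.31 and FBN2 by 0.59.

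Of 22 contractile and YAP or SRF target genes 14 rose and 1 fell, with a median of 0.40. CNN1, a calponin of smooth muscle type, had 270, 245 and 304 CPM in wild-type add-back, 290, 291 and 284 CPM in R298P add-back and 182, 170 and 151 CPM in siControl RAS libraries. The YAP target ANKRD1 rose 2.50-fold, and vinculin, VCL, by 0.67. Smooth muscle actin, ACTA2, was 638 ± 39.9 CPM in wild-type add-back, 679 ± 33.1 CPM in R298P add-back, 447 ± 17.8 CPM in vector knockdown and 550 ± 25.2 CPM in siControl RAS cells, so the add-backs were above both. Of this list 7 were higher than in vector knockdown, a count of 4 without vector knockdown replicate 3 or without replicate 1, which stood apart from the other libraries on the third principal component of all 15.

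Genes of metabolism and stress responses were also among those that changed. In the unfolded protein and ATF4 list 13 of 24 fell and 1 rose; DDIT4, an inhibitor of mTORC1, had 7.16 to 10.3 CPM in add-backs and 28.1, 34.7 and 34.2 CPM in siControl RAS libraries, and TRIB3 and the cystine carrier SLC7A11 fell by 1.62 and 1.59. The chaperone HSPA5 (0.11) and ATF4 itself (-0.08) did not pass. In the glycolysis and hypoxia list 13 of 26 fell and 1 rose, a rise that was not called without siControl RAS replicate 3. HIF1A fell by 1.03 ± 0.06 and the carbonic anhydrase CA12 fell by 1.21. The glycolytic enzymes GAPDH (-0.04) and LDHA (-0.08) were not called, while some other enzymes of this list were among the lower genes.

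Cytosolic ribosomal protein genes rose in 16 of 32 cases and fell in 0, with a median of 0.26, for example RPS4X by 0.55 and RPS14 by 0.45. Heat shock proteins rose in 6 of 15 cases, HSPA8 by 0.42, and cholesterol synthesis genes in 5 of 21, with 1 lower, which were 3 higher without siControl RAS replicate 1 and 0 lower without replicate 3. Lysosomal genes fell in 6 of 28 cases, led by the cathepsin CTSS (-1.11). Of 22 antioxidant genes 7 fell and 2 rose, 1 without siControl RAS replicate 3; the ferritin chain FTH1 had 2877 to 3239 CPM in add-backs and 5320 to 5453 CPM in siControl RAS libraries. Respiratory chain genes had 2 of 29 in each direction, below the background. When single libraries were left out, 0 to 2 were higher and 0 to 3 lower.

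Markers of other cell types were checked in the same libraries. The summed level of the 14 epithelial markers was 85.0 to 102 CPM in add-backs and 68.5 to 86.0 CPM in siControl RAS libraries, with KRT19 (0.98) and KRT18 (0.86) called higher and 0 called lower of the 9 tested, over a median of -0.64. The summed endothelial markers were at 37.0 to 50.6 CPM in add-backs and 37.3 to 40.3 CPM in siControl RAS libraries. The 4 tested had a median of 0.28. Of these the receptor TIE1 fell, by 2.39, a call lost without siControl RAS replicate 1. It had 23 counts over the 6 add-back libraries against 66 over the 3 siControl RAS libraries. TEK (1146 against 495 counts), ROBO4 (270 against 122) and ESAM (47 against 12) were not called. The summed leukocyte markers were at 10.5 to 14.8 CPM in add-backs and 14.2 to 23.7 CPM in siControl RAS libraries. CD68, the 1 member tested, fell by 0.85, a call lost in 4 leave-outs of single libraries. CD14, which was too low to be tested, went the other way. It had 52 counts over the 6 add-back libraries and 7 counts over the 3 siControl RAS libraries. Of the 12 fibroblast markers 6 fell (FN1, DCN, COL1A1, COL1A2, COL3A1 and PDGFRA) and 2 rose (VIM and THY1). The part of these marker levels in the other results was not tested.

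Beyond the lists, the rule for named genes brought up further single genes. OXTR, the oxytocin receptor, had 17.0 to 25.7 CPM (median 21.7) in add-backs and 4.77, 5.06 and 3.74 CPM in siControl RAS libraries, a 4.73-fold rise. GFRA1, a receptor for the neurotrophic factor GDNF, rose 3.99-fold and ELOVL2, an elongase of polyunsaturated fatty acids, 4.09-fold. The integrin ITGA8 rose by 2.03 ± 0.35. Among the lower genes SMOC1, a calcium-binding matrix protein, had 22.3 to 29.7 CPM in add-backs and 188, 190 and 168 CPM in siControl RAS libraries, and RGS5, a regulator of G protein signalling, fell 5.45-fold. RGS5 averaged 30.7 ± 3.01 CPM in wild-type add-back, 49.4 ± 2.81 CPM in R298P add-back and 15.9 ± 2.8 CPM in vector knockdown. It was called higher in the add-backs than in vector knockdown (1.29 ± 0.14) and was not called between the forms.

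Most of what differed from siControl RAS cells was not called against vector knockdown. Of the 1087 higher genes 1059 (97.4%) were not called against vector, 16 were also higher than in vector and 12 were lower. Of the 1206 lower genes 1124 (93.2%) were not called, 41 were higher than in vector and 41 lower. Both tests use the same 6 add-back libraries, and a gene that misses the threshold against vector is not shown to be alike. MMP10, another stromelysin, was 1 of 2 protease genes called higher than in vector. Over the alternatives that count ranged from 0 without vector knockdown replicate 3 to 6 with DESeq2. MMP10 averaged 4.10 ± 1.98 CPM in wild-type add-back, 4.58 ± 1.91 CPM in R298P add-back, 1.02 ± 0.58 CPM in vector knockdown and 17.7 ± 3.37 CPM in siControl RAS cells. CFTR, a chloride channel, was above both other RAS groups: 9.58 to 17.2 CPM in add-backs, 3.86 to 7.22 CPM in vector knockdown and 6.42 to 8.04 CPM in siControl RAS libraries, but its call against vector was lost in each of 8 leave-outs of single libraries.

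The forms were hard to tell apart. Between wild-type and R298P add-back 3 of 13516 genes (0.0222%) were called. At an unadjusted p under 0.05 there were 665 genes, close to what that threshold gives where nothing differs. METTL14 was lower with wild type (-0.79 ± 0.12, edgeR adjusted p = 0.0322). WTAP had 263, 271 and 295 CPM in wild-type add-back and 186, 180 and 201 CPM in R298P add-back (log2 0.55, edgeR adjusted p = 0.000549). WTAP averaged 263 ± 1.27 CPM in vector knockdown and 256 ± 21.5 CPM in siControl RAS cells, so the R298P libraries stood below every other RAS library. RCAN1, an inhibitor of calcineurin, had 713, 738 and 750 CPM in wild-type add-back and 554, 594 and 573 CPM in R298P add-back (0.35, edgeR adjusted p = 0.0225). The WTAP call held under all alternatives tried, and the calls of METTL14 and RCAN1 were lost when single libraries were left out. Of the 2293 genes called against siControl RAS cells, METTL14 and RCAN1 were the 2 that also differed between the forms.

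**Figure D5:**
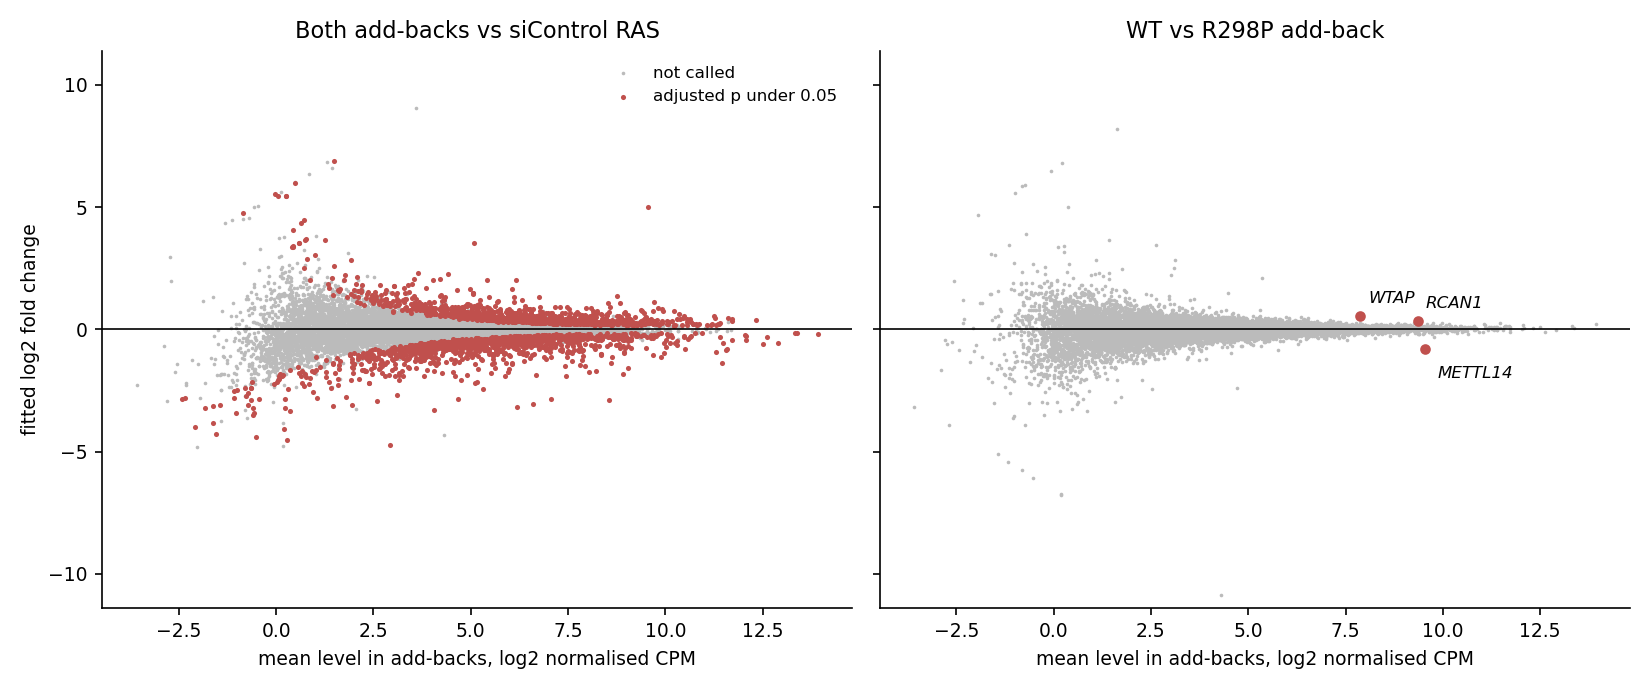
Fitted log2 fold change of all 13516 tested genes against their mean log2 level in the add-backs, for both add-backs against siControl RAS cells (left) and wild-type against R298P add-back (right); red points are called by edgeR. The left panel holds 2293 red points and the right panel 3, WTAP, RCAN1 and METTL14.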

How the data were processed

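Per the labels' protocols, 3′ end libraries came from a QuantSeq kit of Lexogen, so counts do not grow with transcript length. The authors deposited unnormalised counts per Ensembl gene for 15 libraries. The submitters' processing notes name Bowtie2, RSEM 1.2.12 and hg19 but not their roles. RSEM can give fractional estimates, yet every deposited count is whole; whether it was rounded, the annotation, filters and strand setting were not given in the sources used here. Names for 52301 of 57736 IDs (90.6%) came from a symbol table (51959) and from GENCODE 29 (342), which is of another build. RefSeq synonyms served only to look up listed genes. No library was a copy of another (chi-square per degree of freedom 3.52 to 8.47 within groups).

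All 15 libraries entered 1 edgeR 4.0.16 fit (R 4.3.3) with a coefficient for each of 5 groups, TMM factors, filterByExpr and the quasi-likelihood test with robust estimation on 10 residual degrees of freedom. The contrast was the mean of both add-backs minus siControl RAS. The filter left 13516 genes with 99.8% of the counts; the biological coefficient of variation was 16.7%. The procedure was tested on simulated data. Alternatives used DESeq2 1.42.0, limma-voom (limma 3.58.1), other size factors, other filters, a replicate block, fewer libraries and leaving out each library.

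Members and lists were chosen with earlier results of these data known. Genes named are METTL14, the 15 called genes each way that changed most, at least 10 CPM in a group and no overlap of libraries, 5 each way for the other tests, up to 3 called members of each list, and a fixed set of senescence genes; some are left out, and other members of a list stand as examples. Mitochondrially encoded transcripts, RBM15B and PECAM1 were listed but not analysed here. Some other list members enter the counts and are not reported here by name.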

Additional observations from a re-analysis of the deposited data

Results flagged for a closer look

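In 5 of the 107 named genes examined, 1 of the 6 add-back libraries lay far from the other 5; chance flags about 1 gene in 20. MYBL2 had 22.4 CPM in wild-type add-back replicate 3, against 8.68 to 12.5 CPM in the others. IFI6 had 440 CPM in R298P add-back replicate 3, against 343 to 378 CPM. CENPA had 3.75 CPM in R298P add-back replicate 2, against 0.15 to 1.42 CPM. TIE1, an endothelial receptor, had 1.5 CPM in wild-type add-back replicate 2, against 0.376 to 0.681 CPM. CXCL1 had 649 CPM in R298P add-back replicate 3, against 828 to 893 CPM. Without the library in question, each of these 5 genes kept its direction and its call against siControl RAS cells.

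A further 3 genes differed between the forms by edgeR's test of the difference: METTL14 (-0.79, wild type minus R298P), WTAP (0.55) and RCAN1 (0.35).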

How the results depend on the processing

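Against siControl RAS cells 2293 genes were called; leaving out 1 of the 9 compared libraries gave 1676 to 2159 and the other alternatives 2292 to 2412, upper-quartile factors with 53.3% of calls higher against 47.4% with TMM. Of the 2293 genes 0 were called in the opposite direction in any of them, and 1591 to 2281 stayed called. Of 94 named genes called, 75 were called under every alternative and 19 were lost in at least 1. METTL3, which is not called, turned to -0.0907 without wild-type add-back replicate 2, -0.0124 without R298P add-back replicate 1, -0.2155 without siControl RAS replicate 1 and -0.1494 without siControl RAS replicate 3, over a leave-out range of -0.2155 to 0.4923. Between the forms the count of 3 (2 higher and 1 lower with wild type) was 14 (7 and 7) with no filter, 12 (7 and 5) with DESeq2 and 5 (4 higher) with limma-voom; leaving out 1 library gave 1 to 2 genes, 1 to 2 higher and 0 to 1 lower. The cause was not tested. Against vector DESeq2 called 127 genes higher in place of 79, and leave-outs gave 50 to 72 higher and 48 to 66 lower.

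Replicate numbers did not pair the libraries: deviations of same-numbered libraries correlated at -0.0541 to 0.0681 over 30 pairs, and for 5 of the 15 the best match was the same number. With a replicate block 2406 genes were called against siControl RAS cells, and 3 higher and 0 lower between the forms, where METTL14 had an adjusted p of 0.0875. Without vector knockdown replicate 1, an alternative chosen after seeing the data, 2433 genes were called. Interferon-stimulated genes called lower numbered 20 to 25 against siControl RAS cells and 15 to 21 against vector over the alternatives. One count was worth 0.129 to 0.202 CPM, which limits the precision of low genes such as CENPA.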
